A study of Mus musculus with 6 samples.

Results

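Cultured fetal hepatocytes that lack Cnot3 (Cnot3KO) were compared with control hepatocytes before any actinomycin D (ActD), the inhibitor of transcription used in the rest of the experiment. The comparison rests on 2 of the 6 expression arrays, chosen by their labels as the untreated array of each genotype. Livers came from E16.5 embryos, late in gestation. In Cnot3KO embryos Cre recombinase under the albumin promoter removes floxed Cnot3, so that the deletion follows albumin expression in the hepatic lineage. Control embryos are labelled wild type, and by the methods of the study controls were embryos with floxed Cnot3 but no Cre, or with Cre and at least 1 unfloxed allele. Which of these genotypes gave the control RNA is not given in the sources used here, nor how many embryos were pooled. Hepatocytes of both genotypes were cultured on gelatin with oncostatin M and dexamethasone, which promote the maturation of fetal hepatocytes in vitro. By the account of the study, deletion was partial in the fetal liver itself but had become efficient in the cells once culture ended. With 1 array per genotype, a difference carries no replicate error and no test, and every statement below describes these 2 RNA samples.

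Cnot3 is a non-catalytic subunit of the Cnot complex, which shortens the poly(A) tails of mRNAs and thereby starts their decay. The complex is brought to its targets by RNA-binding proteins and by microRNA machinery, and an mRNA that escapes it can accumulate. An mRNA can also differ because the transcription of its gene differs, and a level before ActD combines both. Hepatocytes of late gestation are passing from a proliferative fetal state to one that makes glucose, urea, bile acids and plasma proteins.

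A gene was represented by 1 probe set, and its difference was taken as log2 of the Cnot3KO intensity minus log2 of the control intensity. Of 16110 genes above the 20th percentile of intensity on at least 1 of the 2 arrays, 1107 (6.87%) exceeded control by more than 1.5-fold in Cnot3KO cells and 482 (2.99%) lay more than 1.5-fold below it. Shares of a gene list past 1.5-fold are to be read against these 2 percentages. Most differences were small. The middle of the distribution lay at 0.04 (log2), the 5th and 95th percentiles were -0.47 and 0.66, and beyond 2-fold there were 199 higher and 96 lower genes. At over 3-fold 24 higher and 12 lower genes were left. The excess of higher genes depended on how the arrays were scaled. With each array centred on the median of the genes kept, all differences shifted by -0.10, and 704 genes were higher and 749 lower, which is 48.5% higher in place of 69.7%. That shift was larger than the median difference of 0.04, so the middle of the distribution then lay below 0. With centring on 41 ribosomal protein genes the shift was 0.0033 and the counts were 1123 and 473. Under the first of these centrings 12 of 66 list medians changed sign, none of them over 0.098 in size as reported, and a difference named below keeps its sign if it is larger than the shift.

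**Figure D1:**
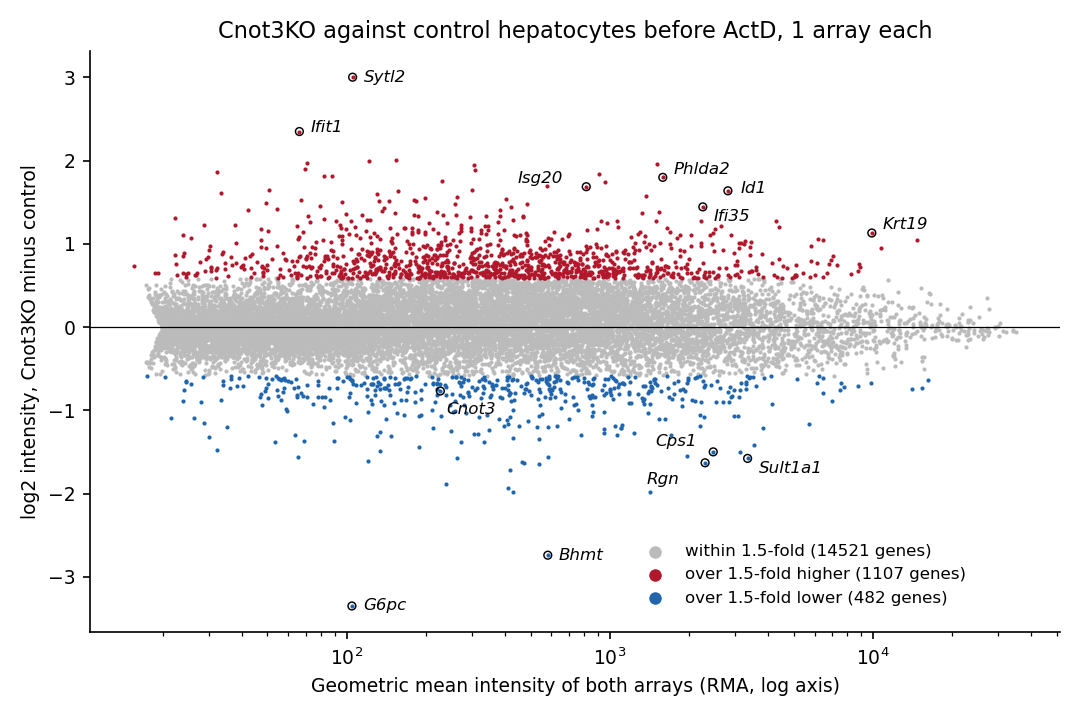
Difference of each of the 16110 genes kept (log2 intensity, Cnot3KO minus control, y axis) against the geometric mean of its intensity on both arrays (x axis, log scale), with 1 point per gene. Red marks the 1107 genes over 1.5-fold higher, blue the 482 over 1.5-fold lower and grey the rest. Named genes are circled, from Sytl2, 8.02-fold higher, to G6pc, 10.2-fold lower.

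Separate probe sets of the same gene give the only measure of technical error within these arrays. Over 8640 genes with a second probe set the SD between probe sets was 0.25 (log2). Of 576 higher genes with a second probe set, 450 had the same sign there and 174 (30.2%) were again past 1.5-fold. Of 291 lower genes, 249 had the same sign and 91 (31.3%) were past 1.5-fold. Where both probe sets were above the array median on both arrays, 140 of 334 higher (41.9%) and 72 of 182 lower genes (39.6%) passed on both. A difference near 1.5-fold thus often rested on 1 probe set, and values of other probe sets are given below for a part of the genes named.

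The brightest Cnot3 probe set read 296 in control and 174 in Cnot3KO, a difference of -0.77, and the other one differed by -0.05. The position of these probe sets relative to the floxed exons was not determined here, so neither value checks the genotype label. Among the 20 measured genes nearest to Cnot3 on chromosome 7, 10 to each side, 1 was past 1.5-fold. This was Tmc4, a transmembrane channel-like gene that lies 2 measured genes away, with 89.2 in control and 277 in Cnot3KO. The adjacent genes Prpf31 and Leng1 differed by 0.20 and 0.11. The remaining neighbours lay between -0.53, for the receptor gene Pirb, and 0.44.

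The antiviral programme accounted for the list with the highest median. Interferons bind receptors on the cell surface, Jak kinases then activate Stat and Irf transcription factors, and these switch on effector genes that block viral replication. Cells also start the programme from inside, through sensors of foreign nucleic acid. The steps differed in these cells. None of 8 interferon and interferon receptor genes was past 1.5-fold, with a median of -0.06 between -0.26 and 0.32. The receptor chain Ifnar1 read 374 in control and 359 in Cnot3KO, and its partner Ifnar2 937 in control and 899.9 in Cnot3KO. Ifnb1, the interferon beta gene, was below the array median on both arrays (30.5 in control and 28.1 in Cnot3KO).

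Of the nucleic acid sensors and their adaptors 4 of 17 (23.5%) were higher and 0 lower, with a median of 0.37. Tlr3, the endosomal receptor for double-stranded RNA, was 1.88-fold higher (95.5 in control and 179 in Cnot3KO). Mavs, the adaptor of cytosolic RNA sensors, was 1.57-fold higher (448 in control and 704 in Cnot3KO), the kinase Tbk1 1.52-fold (1691 in control and 2575 in Cnot3KO) and the RNA helicase sensor Ifih1 1.51-fold (458 in control and 690.3 in Cnot3KO). Mavs, Tbk1 and Ifih1 passed 1.5-fold by less than the shift of -0.10 under centring on the genes kept. With that centring the list median was 0.26. Ifih1 also stands among the antiviral effectors, so the counts are not separate. Sensors of the DNA pathway lay near 0, with Cgas at -0.14 and Sting1 at -0.09, and the receptor Tlr7 was at -0.56. Of 12 Jak-Stat and Irf factors 2 (16.7%) were higher and 0 lower. These were Irf7, which amplifies interferon production, with 68.9 in control and 149.9 in Cnot3KO, and Irf9, the DNA-binding partner of the Stats, with 121 in control and 261 in Cnot3KO. Stat2 was at 0.46.

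Of 45 antiviral effector genes 23 (51.1%) were over 1.5-fold higher and 0 lower, and 41 had a positive difference, against 55.0% of all genes. The median was 0.59. Isg20, an exonuclease that degrades viral RNA, read 453 in control and 1461 in Cnot3KO and was 3.22-fold higher. Ifi35, an interferon-induced signalling protein, was bright on both arrays (1368 in control and 3725 in Cnot3KO), and its other probe sets differed by 1.22 and 1.23. Ifit3, the partner of Ifit1 in binding foreign RNA, was 2.69-fold higher (84.4 in control and 227 in Cnot3KO). The ADP-ribosyltransferase gene Parp14 was 2.51-fold higher (118 in control and 297 in Cnot3KO) and the antibody receptor and ubiquitin ligase Trim21 2.29-fold (179 in control and 410.0 in Cnot3KO), with other probe sets at 0.33 and 0.48. Gbp2, a guanylate-binding GTPase, was 2.20-fold higher (85.6 in control and 188 in Cnot3KO) and differed by 1.16 on its other probe set. Rsad2 (viperin), an enzyme that blocks viral RNA synthesis, and the oligoadenylate synthetase-like gene Oasl2 differed by 1.54 and 1.49. Several of these values were low in control cells, and Ifit1 and Oasl2 read 29.3 and 29.6 there, below the array median of 71.2.

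Effector genes of this kind are known to carry an interferon-stimulated response element near their start. The element was searched as TTTCNNTTTC and, for the other strand, GAAANNGAAA, in RefSeq promoter windows (assembly GRCm38.p6) from 250 bases before to 50 after each transcription start. A gene with several starts counted once, and matches could overlap. Of the 45 effectors 35 had a window, and 18 of these (51.4%) held a match, against 3.57% of the 12847 genes kept that had a window. Among higher effectors 12 of 20 (60%) held a match, and among those within 1.5-fold 6 of 15 (40%). Stretches from promoters of 7 higher effectors are printed to show the element as it stands in the genes named here, 5′ to 3′ on the gene's strand, with the matching letters in capitals.
Ifit1, chr19:34640796-34640821, plus strand: agtctcagTTTCAGTTTCtcactgct
Ifit3, chr19:34583365-34583390, plus strand: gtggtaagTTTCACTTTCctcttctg
Rsad2, chr12:26456555-26456580, minus strand: ggtccaacTTTCATTTTCagaaaaca
Gbp2, chr3:142620596-142620621, plus strand: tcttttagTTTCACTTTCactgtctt
Gbp7, chr3:142530275-142530300, plus strand: gtgtgcagTTTCAGTTTCagttctcc
Trim21, chr7:102565452-102565477, minus strand: tctgagagGAAACTGAAAgtgaaatt
Igtp, chr11:58199514-58199539, plus strand: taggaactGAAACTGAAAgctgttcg
A match describes letters and not a bound factor.

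Class I antigen presentation, which displays peptides to T cells and is also interferon-responsive, had 5 of 17 members (29.4%) higher and 0 lower, with a median of 0.33. H2-M3, a nonclassical presenting molecule, was 2.80-fold higher (154 in control and 432 in Cnot3KO). The peptide transporter subunits Tap1 and Tap2 were 1.95-fold and 1.86-fold higher, although other Tap1 probe sets differed by -0.12 to -0.01. Both immunoproteasome subunits Psmb9 (188 in control and 311 in Cnot3KO) and Psmb10 (1317 in control and 2073 in Cnot3KO) were higher. Constitutive proteasome genes differed less. None of 34 was past 1.5-fold, 28 had a positive difference and the median was 0.20.

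**Figure D2:**
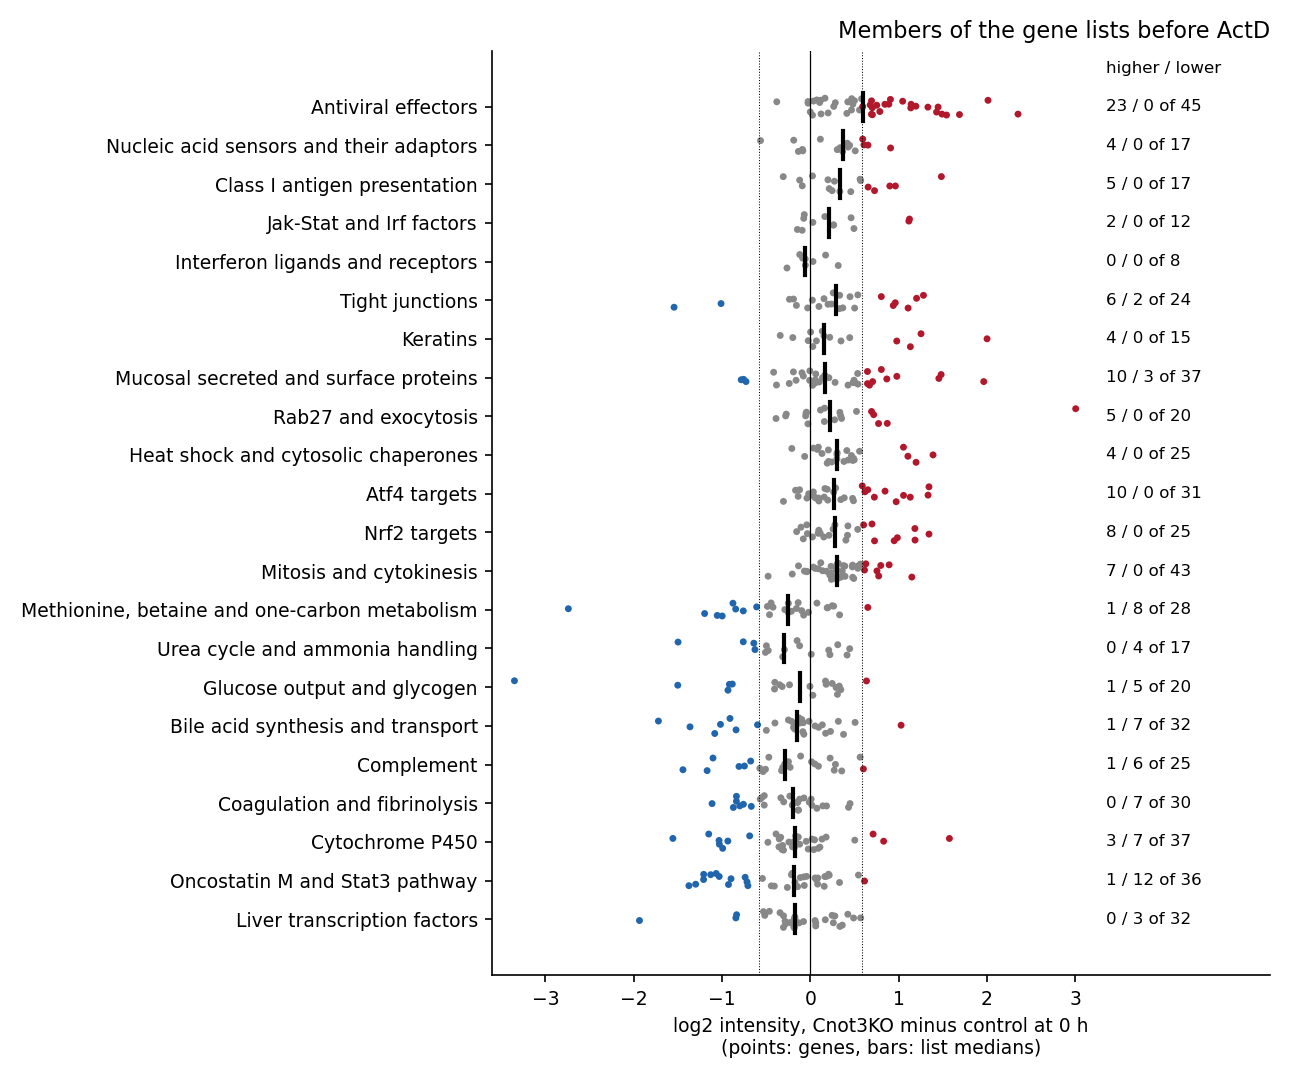
Differences of single members (points, log2 intensity, Cnot3KO minus control at 0 h, x axis) in 22 of the gene lists (rows), with list medians as black bars and dotted lines at 1.5-fold. Red and blue points lie beyond 1.5-fold, and the numbers at the right give the members higher and lower among those kept. Antiviral effectors stand farthest to the right, with a median of 0.59 and 0 members lower.

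Keratins form the intermediate filaments of epithelia, and hepatocytes are known for Krt8 and Krt18 only. Of 15 keratins 4 (26.7%) were higher and 0 lower. The bile duct keratin Krt19 read 6691 in control and 14661 in Cnot3KO, the intestinal keratin Krt20 4146 in control and 8166 in Cnot3KO and Krt23 134 in control and 318 in Cnot3KO. Krt8 and Krt18 differed by 0.22 and 0.35. Tight junctions seal the space between epithelial cells, and 6 of 24 of their genes (25%) were higher and 2 lower, with a median of 0.29. The sealing claudins Cldn6 (593 in control and 1440.2 in Cnot3KO), Cldn4 (2909 in control and 6693 in Cnot3KO) and Cldn7 (1264 in control and 2720.5 in Cnot3KO) were higher. Cldn2, a pore-forming claudin of hepatocytes and leaky epithelia, went the other way and was 2.91-fold lower (3342 in control and 1147 in Cnot3KO), with another probe set at -0.80. Cldn5, known from endothelium, was 2.02-fold lower (365 in control and 181 in Cnot3KO). The claudins thus split by member.

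Of 24 desmosome, adherens and gap junction genes 5 (20.8%) were higher and 2 lower. Desmosomal plaque genes were among the higher ones, Pkp3 with 97.5 in control and 185 in Cnot3KO, Pkp2 with 2789.6 in control and 4599.9 in Cnot3KO and Jup with 355 in control and 544 in Cnot3KO, although Pkp2 probe sets ranged from -0.19 to 0.97. The gap junction gene Gja1 was 1.52-fold lower. Of the laminins and integrins 3 of 22 (13.6%) were higher and 1 lower, the vascular laminin Lama4 (169.7 in control and 106 in Cnot3KO). The higher ones were Lamb3 at 1.89, Itgb4 with 78.4 in control and 191 in Cnot3KO and Itgb6 with 61.1 in control and 101 in Cnot3KO, and Lamb3 and Itgb4 belong to the anchorage of squamous epithelia to basement membrane. The list median was -0.03.

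Among secreted and surface proteins of mucosal epithelia 10 of 37 (27.0%) were higher and 3 (8.11%) lower, and the trefoil peptides that protect mucosa split. Tff1 was at 1.96, whereas Tff3 was 1.66-fold lower (19712 in control and 11896 in Cnot3KO) and Tff2 1.72-fold lower (75.3 in control and 43.8 in Cnot3KO). Wfdc2, a secreted protease inhibitor, read 291 in control and 812 in Cnot3KO. Esrp1, the splicing regulator of epithelial isoforms, was 2.74-fold higher (47.9 in control and 131 in Cnot3KO). The surface protease St14 and its partner Prss8 were 1.82-fold and 1.63-fold higher. Lcn2, an iron-binding protein of inflammation and mucosa, was 1.69-fold lower (9783 in control and 5796 in Cnot3KO).

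Sytl2, which tethers Rab27 vesicles to the plasma membrane, had the largest positive difference of all genes named by the rule (37.2 in control and 298 in Cnot3KO, 8.02-fold). Rab27a itself read 61.1 in control and 46.7 in Cnot3KO, below the array median. Of 20 genes for Rab27 effectors and exocytosis 5 (25%) were higher and 0 lower. Besides Sytl2 these were the effectors Mlph (420.5 in control and 769 in Cnot3KO), Exph5 (93.6 in control and 159.8 in Cnot3KO) and Sytl4, whose other probe set differed by -0.10, and the apical membrane syntaxin Stx3 (877 in control and 1441 in Cnot3KO).

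Metabolic genes of the mature liver included the 2 genes over 4-fold lower, G6pc and Bhmt. G6pc read 334 in control and 32.8 in Cnot3KO, the latter below that array's median of 69.7. Neither gene had another probe set. By the account of the study, G6pc mRNA rose during culture in cells of both genotypes, which it described as differentiating in a similar way. Glucose output is the task of gluconeogenesis and of the glucose-6-phosphatase system, and 5 of 20 of its genes (25%) were lower and 1 higher. The 5 lie on one route. G6pc (-3.35) is the catalytic subunit, Slc37a4 (1816 in control and 984 in Cnot3KO) the transporter that feeds it, Fbp1 (1857 in control and 984 in Cnot3KO) and Pcx (1008 in control and 528 in Cnot3KO) are gluconeogenic enzymes, and Slc2a2 (5265 in control and 1860.2 in Cnot3KO) lets glucose out. Pck1, another enzyme of the route, was below the array median on both arrays (24.9 in control and 24.8 in Cnot3KO). The transcription factor Creb3l3 was 1.55-fold higher. Glycolysis had a median of 0.09, which turned to a negative value with centring on the genes kept, and 2 of 22 members higher and 1 lower. The lower gene was Pdk4, the kinase that spares pyruvate in fasting (388 in control and 203 in Cnot3KO).

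**Figure D3:**
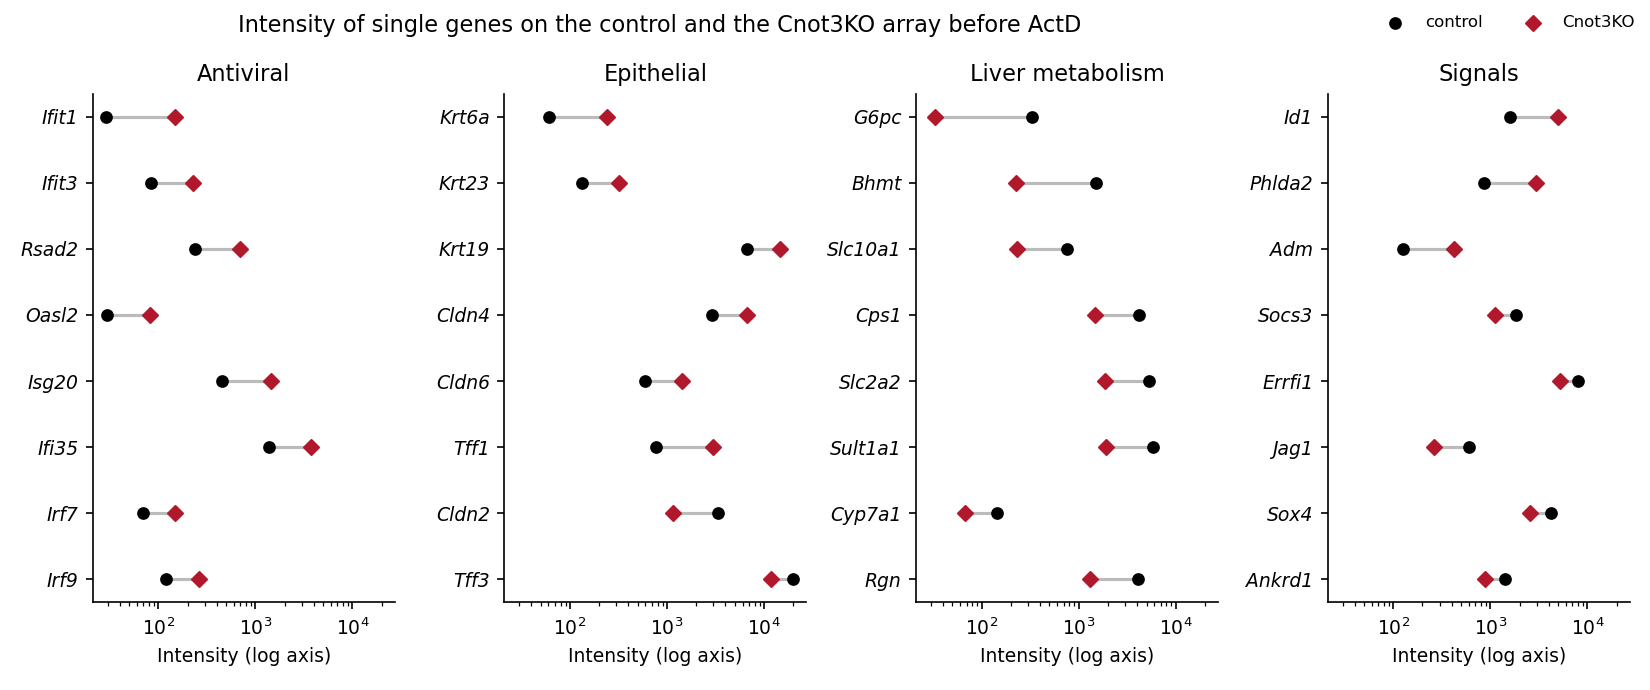
Intensity (x axis, log scale) of 32 named genes on the control array (black circles) and the Cnot3KO array (red diamonds) before ActD, in 4 panels, with 1 array per point and a grey line joining the arrays. The 8 antiviral genes lie to the right in Cnot3KO and the 8 liver genes to the left. The epithelial and signalling panels hold genes of both directions, for example Cldn4 (2909 in control and 6693 in Cnot3KO) and Cldn2 (3342 in control and 1147 in Cnot3KO).

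Methionine, betaine and one-carbon metabolism had 8 of 28 members (28.6%) lower and 1 higher, with a median of -0.25. The remethylation enzyme Bhmt (-2.74) uses betaine. Chdh (705 in control and 462 in Cnot3KO) helps to make betaine, and Dmgdh (228 in control and 124 in Cnot3KO) breaks down its product. Bhmt2, a relative of Bhmt, read 884 in control and 386 in Cnot3KO. Mat1a, which makes S-adenosylmethionine in liver, was 2.08-fold lower (3183 in control and 1533 in Cnot3KO). Gnmt, which consumes it, was 1.80-fold lower (1773 in control and 987 in Cnot3KO), and Cbs, which passes homocysteine on to cysteine, was lower too (604 in control and 302 in Cnot3KO). Aldh1l1 was 1.69-fold lower by its brightest probe set and at 0.15 by another. The mitochondrial serine enzyme Shmt2, also an Atf4 target, was 1.57-fold higher.

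Of 17 urea cycle and ammonia genes 4 (23.5%) were lower and 0 higher, with a median of -0.29. They comprised Cps1, the entry enzyme of the cycle (4155 in control and 1471 in Cnot3KO), Arg1, its last enzyme (1307 in control and 772 in Cnot3KO), and the amino acid transporters Slc38a4 (6399 in control and 4143 in Cnot3KO) and Slc7a2, whose probe sets ranged from -0.77 to 0.07. Amino acid breakdown had 1 of 28 lower and 1 higher. In that list Hal, which starts histidine breakdown, read 82.9 in control and 158 in Cnot3KO, and Amdhd1 of the same pathway 138 in control and 85.3 in Cnot3KO.

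Bile acid synthesis and transport had 7 of 32 members (21.9%) lower and 1 higher. The import carriers Slc10a1 and Slco1b2 were 3.29-fold and 2.57-fold lower, the latter with probe sets from -1.72 to 0.05. Synthesis enzymes followed, with Cyp8b1 at 172 in control and 84.8 in Cnot3KO, Cyp39a1 at 1653 in control and 879.9 in Cnot3KO and the conjugating enzyme Baat at 513 in control and 286 in Cnot3KO. The export pump Abcb11 read 260.4 in control and 172 in Cnot3KO. Hsd3b7, which acts on early sterol intermediates, was 2.04-fold higher (947 in control and 1930.4 in Cnot3KO). Cholesterol synthesis had 0 of 22 members past 1.5-fold and a median of -0.11.

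Fatty acid oxidation breaks down fat for energy and ketone bodies. Of 28 fatty acid oxidation genes 3 (10.7%) were lower, among them the thioesterase Acot1 (1845 in control and 1083 in Cnot3KO) and the peroxisomal thiolase Acaa1b (608 in control and 378 in Cnot3KO), and 22 had a negative difference. Of 36 genes of fat synthesis and storage 1 was lower and 1 higher. The lower was Hsd17b13, at -1.65 by the brightest and -0.19 by another probe set, and the higher the lipid droplet coat Plin3 (1738 in control and 4041 in Cnot3KO). Apolipoproteins had 4 of 27 members (14.8%) higher and 0 lower, including Apoa4 (182 in control and 318 in Cnot3KO) and Apoa5 (95.9 in control and 159 in Cnot3KO). Complex I of the respiratory chain had 0 of 33 members past 1.5-fold, 25 negative differences against 45.0% of all genes, and a median of -0.19.

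Detoxification split by family. Of 37 cytochrome P450 genes 7 (18.9%) were lower and 3 (8.11%) higher, with a median of -0.18. The hepatic members Cyp2j5 (112 in control and 38.0 in Cnot3KO), Cyp3a13 (1999 in control and 979 in Cnot3KO), Cyp3a25 (405 in control and 198 in Cnot3KO) and Cyp2d10 (1067 in control and 536 in Cnot3KO) were lower. Cyp2s1, known from epithelia outside the liver, was 2.98-fold higher (796 in control and 2371 in Cnot3KO), and Cyp1a1 1.64-fold. Of 35 conjugating enzymes 8 (22.9%) were higher and 3 (8.57%) lower. Among these the glutathione transferases Gstm4 (291 in control and 530.5 in Cnot3KO), Gstt3 (336 in control and 616 in Cnot3KO), Gsta4 (2302 in control and 4001 in Cnot3KO) and Gstm3 (457 in control and 690.2 in Cnot3KO) were higher. Sulfotransferases went both ways, with Sult1a1 2.98-fold lower (5768 in control and 1934 in Cnot3KO) and Sult2b1 2.20-fold higher (134 in control and 295 in Cnot3KO).

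Complement and coagulation proteins are secreted by the liver, and a part of their genes was lower. Of 25 complement genes 6 (24.0%) were lower and 1 higher, with a median of -0.29. Vtn, the complement-inhibiting adhesion protein vitronectin, read 8587 in control and 3820.0 in Cnot3KO and differed by -1.46 on its other probe set. The complement inhibitor Serping1 was 2.15-fold lower (2259 in control and 1052 in Cnot3KO) and C8a, a subunit of the membrane attack complex, 2.72-fold (311 in control and 114 in Cnot3KO). C1qa and C1qb, also lower, are made by macrophages and stand among the macrophage markers below. Coagulation and fibrinolysis had 7 of 30 members (23.3%) lower and 0 higher, with a median of -0.20. F13b was 2.16-fold lower (152 in control and 70.2 in Cnot3KO), the plasmin precursor Plg 1.83-fold (2786 in control and 1522 in Cnot3KO), factor gene F12 1.74-fold (790.4 in control and 454 in Cnot3KO) and F9 1.79-fold (86.8 in control and 48.6 in Cnot3KO). Ggcx, which activates clotting factors through vitamin K, was 1.69-fold lower.

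Oncostatin M in the medium signals through Osmr and Il6st to Stat3, which drives acute phase genes. Of 36 genes of this pathway 12 (33.3%) were lower and 1 (2.78%) higher. The receptor Osmr read 448 in control and 465 in Cnot3KO and Stat3 1558 in control and 1485 in Cnot3KO, both within 1.5-fold. The shared receptor chain Il6st was 1.63-fold lower (1707 in control and 1046 in Cnot3KO), with other probe sets from -0.60 to -0.12. The feedback inhibitor Socs3 was 1.64-fold lower, and Junb, an immediate target, 1.53-fold higher. Several secreted targets were lower, with Saa3 at 3461 in control and 1857 in Cnot3KO, Orm1 at 222 in control and 109 in Cnot3KO, Itih4 at 4274 in control and 2041 in Cnot3KO, Hp at 18256 in control and 10943 in Cnot3KO and Apcs at 5723 in control and 3011 in Cnot3KO. Steap4, a metalloreductase, read 724 in control and 331 in Cnot3KO.

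Dexamethasone, the other hormone in the medium, acts through the glucocorticoid receptor. Of 22 glucocorticoid targets 4 (18.2%) were lower and 1 higher, with a median of -0.03. Zbtb16 was 2.51-fold lower (680.0 in control and 271 in Cnot3KO), with probe sets from -2.30 to -0.10, and Errfi1 1.52-fold lower. Fkbp5, Tsc22d3 and Per1 differed by -0.27, -0.19 and 0.23, and the receptor Nr3c1 by 0.37. Of 32 liver transcription factors 3 (9.38%) were lower and 0 higher. They were Onecut2 (802 in control and 210.0 in Cnot3KO), Nfib (1180.3 in control and 658 in Cnot3KO) and Zbtb20 (759 in control and 425 in Cnot3KO), each lower on every probe set. Hnf4a, Cebpa and Foxa2 differed by 0.33, 0.17 and 0.42.

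Signalling genes differed by single members more than by pathway. Bone morphogenetic proteins act through Smads to induce the Id inhibitors of differentiation and the iron hormone gene Hamp. Of 28 genes 4 (14.3%) were higher and 2 (7.14%) lower. Id1 (1593 in control and 4961 in Cnot3KO) and Id3 (1134 in control and 2515 in Cnot3KO) were higher, as was Id2 (5263 in control and 9530.3 in Cnot3KO), whose other probe sets ranged from -0.16 to 0.41. The inhibitory Smad6 was 1.57-fold higher. The lower genes were the iron-sensing receptors Tfr2 (1454 in control and 621 in Cnot3KO) and Hjv (550.0 in control and 312 in Cnot3KO), while Hamp differed by 0.16 and Smad1 by -0.01.

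In the Notch list 2 of 19 genes (10.5%) were lower and 0 higher, with 16 negative differences. The ligand Jag1 was 2.27-fold lower (598 in control and 264 in Cnot3KO), with other probe sets from -0.74 to -0.10, and the target Hes1 was at -0.06. Of 28 Yap and Tead targets 2 were lower and 1 higher, with a median of -0.22, and Ccn1 was the higher one, with probe sets from -0.31 to 1.01. Growth factor feedback genes had 4 of 34 (11.8%) higher and 2 lower. The ligand Tgfa was 2.42-fold lower (1923 in control and 795 in Cnot3KO), but its other probe sets differed by only -0.26 and -0.25. The AP-1 gene Fosl1 was 2.28-fold higher (117 in control and 266 in Cnot3KO) and the phosphatase Dusp10 2.29-fold higher (197 in control and 450.2 in Cnot3KO). Of 26 NF-kB and chemokine genes 2 were higher and 2 lower, and the chemokine Cxcl1 read 1240.2 in control and 591 in Cnot3KO.

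Imprinted genes, expressed from 1 parental allele and many of them active in fetal growth, had 6 of 36 members (16.7%) higher and 2 (5.56%) lower, with a median of 0.00. Phlda2, which restrains placental growth, was 3.48-fold higher at high intensity (852 in control and 2967 in Cnot3KO). Peg10 (46.8 in control and 164 in Cnot3KO) and Sfmbt2 (43.6 in control and 154 in Cnot3KO) were at 1.81 and 1.82. Both were below the array median in control, and Sfmbt2 differed by 0.31 on its other probe set. The noncoding RNA genes Rian (328 in control and 565 in Cnot3KO) and Meg3 (2442 in control and 3793 in Cnot3KO) were higher, though Meg3 probe sets ranged from -0.20 to 0.79. Mest (1309 in control and 765 in Cnot3KO) and Plagl1 (3085 in control and 1909 in Cnot3KO) were lower, the latter at -0.06 to -0.04 on other probe sets. Dlk1, Cdkn1c and Grb10 differed by -0.07, -0.18 and -0.09.

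Stress responses differed by branch. Atf4 drives the response to amino acid shortage and misfolded protein, and 10 of 31 of its targets (32.3%) were higher and 0 lower, with a median of 0.26. The cystine carrier Slc7a11 read 146 in control and 371 in Cnot3KO, its partner Slc3a2 1666 in control and 3647 in Cnot3KO, and the transcription factor Ddit3 457 in control and 949.6 in Cnot3KO. Slc7a11, at 1.34, had the largest difference of the Atf4 list and of the Nrf2 list below, so their counts are not separate. Trib3 and Nupr1 were 1.96-fold and 1.65-fold higher, with other probe sets at 0.99 and 0.80. Atf4 mRNA itself differed by 0.34. Chaperones of the endoplasmic reticulum had 2 of 28 members (7.14%) higher, near the share of all genes, and the chaperone gene Hspa5 read 17741 in control and 20710.3 in Cnot3KO.

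Nrf2 targets, the antioxidant genes, had 8 of 25 members (32.0%) higher and 0 lower, with a median of 0.28. Gclc, which limits glutathione synthesis, read 7732 in control and 14925 in Cnot3KO and differed by 1.03 on its other probe set. The quinone reductase Nqo1 was 1.98-fold higher (171 in control and 338 in Cnot3KO), Srxn1, which repairs peroxiredoxins, 2.27-fold (594 in control and 1351 in Cnot3KO), and Osgin1 2.27-fold (1662 in control and 3773 in Cnot3KO). Nfe2l2, the gene for Nrf2, differed by -0.16. The core of the antioxidant response element, TGACNNNGC or GCNNNGTCA, stood in promoter windows of 8 of 22 members (36.4%) and of 2122 of the 12847 genes kept. Heat shock genes had 4 of 25 members (16%) higher and 0 lower, with a median of 0.30, among them Hspa4l (1092 in control and 2503 in Cnot3KO) and the small heat shock protein gene Hspb1 (4281 in control and 8888 in Cnot3KO). The heat shock element GAANNTTCNNGAA, or TTCNNGAANNTTC, was matched in 4 of 22 members (18.2%), 0 of them among those higher, and in 0.56% of genes kept. Metallothioneins differed by isoform. Mt4, known from squamous epithelia, was at 1.97 (35.8 in control, below the array median, and 139.9 in Cnot3KO). Mt1 (29869 in control and 30875 in Cnot3KO) and Mt2 (24133 in control and 26345 in Cnot3KO) were within 1.5-fold.

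Hypoxia targets had 3 of 20 members (15.0%) higher and 2 (10%) lower. The vasodilator peptide gene Adm was 3.38-fold higher (125 in control and 423 in Cnot3KO) and passed 1.5-fold on its other probe set too. Epas1, the oxygen-regulated factor HIF-2 alpha, was 2.15-fold lower (2377 in control and 1106 in Cnot3KO). Mitosis and cytokinesis had 7 of 43 members (16.3%) higher, 0 lower and 37 positive differences, with Cdc20 at 5222 in control and 8805 in Cnot3KO and Ube2c at 4402 in control and 7646 in Cnot3KO. DNA replication had 3 of 39 (7.69%) higher, near the share of all genes, although 31 differences were positive and the median was 0.24. Cyclins, their kinases and inhibitors had 2 of 33 (6.06%) higher, and Mki67, the proliferation marker, differed by 0.24. SR proteins and splicing regulators had 3 of 29 (10.3%) higher, including Srsf5 (3514 in control and 5868 in Cnot3KO) and the kinase Clk1 (1325 in control and 2077 in Cnot3KO).

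RNA-binding adaptors that recruit the Cnot complex were mostly below 0. Of 19 adaptors 16 had a negative difference, against 45.0% of all genes. Their median was -0.29, but -0.11 with the mean of all probe sets of a gene, and 1 adaptor was past 1.5-fold. This was Zfp36l2 (1438 in control and 952 in Cnot3KO), which binds AU-rich elements and whose other probe sets ranged from -0.07 to 0.33. Its relative Zfp36l1 read 5187 in control and 3708 in Cnot3KO and Zfp36 782 in control and 762 in Cnot3KO.

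Further genes among the 40 largest differences of each direction lay outside these groups. Higher ones included the chloride channel Ano1 (524 in control and 1750.2 in Cnot3KO), the potassium channel Kcnk1 (320.1 in control and 1034 in Cnot3KO), the branched-chain aminotransferase Bcat1 (152 in control and 453 in Cnot3KO), the small GTPase Gem (39.3 in control and 114 in Cnot3KO) and thrombomodulin, Thbd (108 in control and 309.7 in Cnot3KO). The general transcription factor gene Taf7 was at 1.55, with other probe sets at 0.45 and 1.25, and those of Bcat1 were at 0.40 and 0.91. L1td1, an RNA-binding protein of pluripotent cells, read 56.9 in control and 162 in Cnot3KO. Lower ones included the thyroxine-binding globulin Serpina7 (813 in control and 264 in Cnot3KO), the urate oxidase Uox (1000.5 in control and 339 in Cnot3KO), the clock factor Npas2 (211 in control and 69.3 in Cnot3KO), the pyrimidine enzyme Dpys (144 in control and 56.0 in Cnot3KO), the retinol dehydrogenase Rdh7 (1221 in control and 496 in Cnot3KO) and the vitamin E carrier Ttpa (1482 in control and 613 in Cnot3KO). The membrane protein Tspan8 was 2.67-fold lower (5790.1 in control and 2168 in Cnot3KO), and its other probe sets ranged from -1.81 to -0.90. Esm1, known from endothelium, was 2.80-fold lower (224 in control and 80.1 in Cnot3KO). Among these lower genes Npas2 differed by only -0.18 on its other probe set, and Dpys by -0.75 and -0.07 on its others.

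The labelled cell type was checked by its markers. Alb read 35595 in control and 34185 in Cnot3KO, Ttr 32863 in control and 31484 in Cnot3KO and Afp 34461 in control and 33569 in Cnot3KO, at the top of the intensity range, where these arrays can show little difference. The less bright markers Ahsg and Hnf4a differed by -0.26 and 0.33. Of 10 hepatocyte markers 0 were higher and 1 was lower, the fatty acid carrier Fabp1 (4133 in control and 2308 in Cnot3KO), with a median of -0.06 and a summed intensity of 145991 on the control and 138879 on the Cnot3KO array, sums that rest mostly on the brightest probe sets. Markers of other cells were lower in most lists. All 13 endothelial markers were negative, 3 of them past 1.5-fold (Lyve1, Stab1 and Cdh5, the last with another probe set at 0.19), and their intensities summed to 3019 on the control and 2163 on the Cnot3KO array. Of 13 macrophage markers 5 (38.5%) were lower, namely Vsig4, Mrc1, Timd4, C1qa and C1qb, with sums of 20029 and 16292. Cd68 and Clec4f, also macrophage markers, were at 0.20 and 0.08. Of 13 stellate cell and fibroblast markers 1 was lower (sums 19840 and 16126), of 11 leukocyte markers 3 (46687 and 41130), of 8 erythroid markers 3 (8276 and 5265) and of 5 megakaryocyte markers 0 (4267 and 3170). The erythroid sum rested on the transferrin receptor Tfrc, which other cells share and whose other probe sets differed by 0.01 to 0.04.

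Cholangiocyte markers had 3 of 7 members higher and 1 lower (Pkhd1), with sums of 17305 and 29806, and mesothelial markers 2 of 6 higher (8580 and 11912). Krt7 stands in both lists. Krt19 and Cldn7, which make most of the cholangiocyte count, are also in the epithelial lists above, so the counts are not separate. In bulk RNA fewer cells of a type and less RNA per cell cannot be told apart. Markers of other cells moved with the liver and the epithelial lists, and their part in those differences was not tested.

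**Figure D4:**
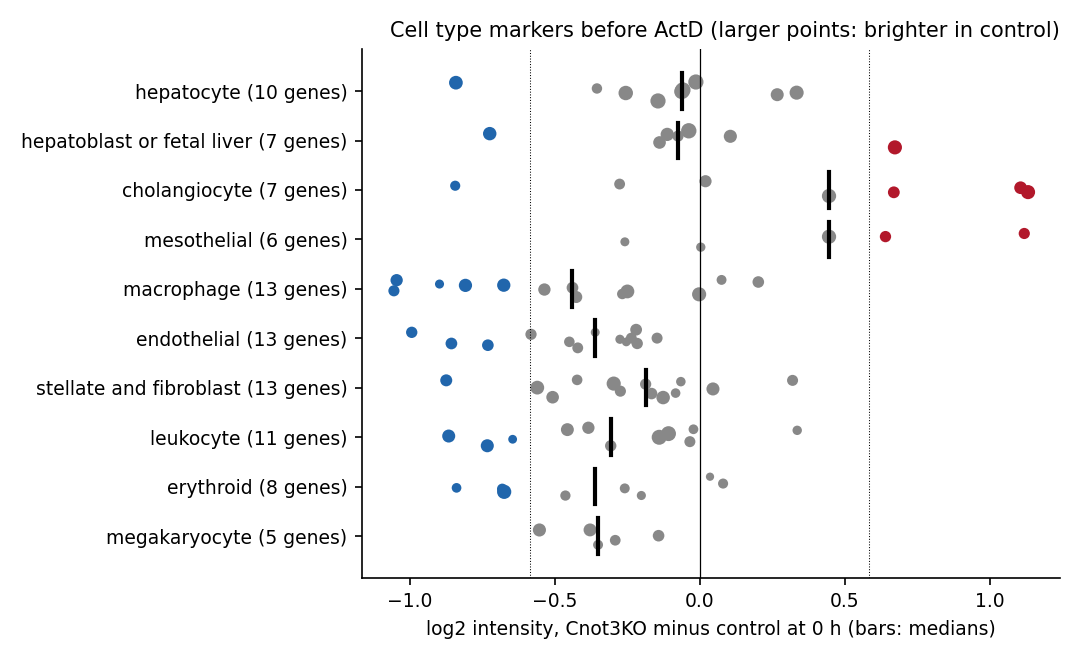
Differences of cell type markers (points, log2 intensity, Cnot3KO minus control at 0 h, x axis) in 10 marker lists (rows, with the number of markers kept), where larger points are brighter in control cells and dotted lines stand at 1.5-fold. Black bars are medians, from -0.44 for macrophage to 0.45 for cholangiocyte markers, and the median of hepatocyte markers is -0.06.

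The differences before ActD were set beside those at 6 and 12 h of ActD, where RNA left from 0 h contributes, so that the times are not separate measurements. Of the 1107 higher genes 749 were also over 1.5-fold higher at both later times, and 0 were over 1.5-fold lower at both. Of the 482 lower genes 212 stayed over 1.5-fold lower at both, and 14 were over 1.5-fold higher at both. The shares of all genes kept that passed 1.5-fold at both later times are not given here. These counts therefore have no background to be read against. Median differences of the higher genes were 0.90 at 6 h and 1.28 at 12 h, and those of the lower genes -0.62 and -0.67. Lists whose median was negative before ActD and positive at 12 h included liver transcription factors (-0.18 and 0.66), Yap and Tead targets (-0.22 and 0.69) and Notch genes (-0.19 and 0.32). Methionine metabolism (-0.25 and -0.65) and complement (-0.29 and -0.66) were negative at both times.

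The 14 genes that were lower before ActD and higher afterwards are Sox4, Socs3, Errfi1, Ankrd1, Cpeb2, Peli1, Sema6d, Garem1, Fam43a, Zfp62, Zfp317, Zfp799, Zfp930 and Zfp119b. At 0 h other probe sets differed by 0.03 (Garem1), -0.41 to 0.02 (Peli1), -0.44 to 0.04 (Sema6d) and -0.63 to 0.15 (Sox4). Those of Zfp62, Zfp930, Cpeb2 and Ankrd1 lay between -0.49 and -0.22, within 1.5-fold. Errfi1 differed by -0.78 on its other probe set and Socs3 by -0.91 to -0.39. Fam43a, Zfp317, Zfp799 and Zfp119b had no other probe set. In control cells Errfi1, the feedback inhibitor of the EGF receptor, read 7935, 1078 and 951 at 0, 6 and 12 h, and in Cnot3KO cells 5217, 2922 and 3285. Ankrd1, a Yap target, read 1404, 482 and 302 in control and 882, 964 and 1061 in Cnot3KO cells. Socs3 read 1843, 724 and 705 and 1121, 1219.7 and 1484. By the way these genes were selected, the control value was the higher one at 0 h and the lower one at 6 and 12 h. Sox4, a transcription factor of progenitor cells, read 4261, 1234 and 1749.6 and 2542, 1866 and 3778. The poly(A)-regulating RNA-binding protein gene Cpeb2 read 641, 113 and 66.3 and 377, 234 and 236. Among the 14, 5 carry symbols of zinc finger genes, and Zfp317, Zfp930 and Zfp119b were below the array median at 0 h on both arrays.

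**Figure D5:**
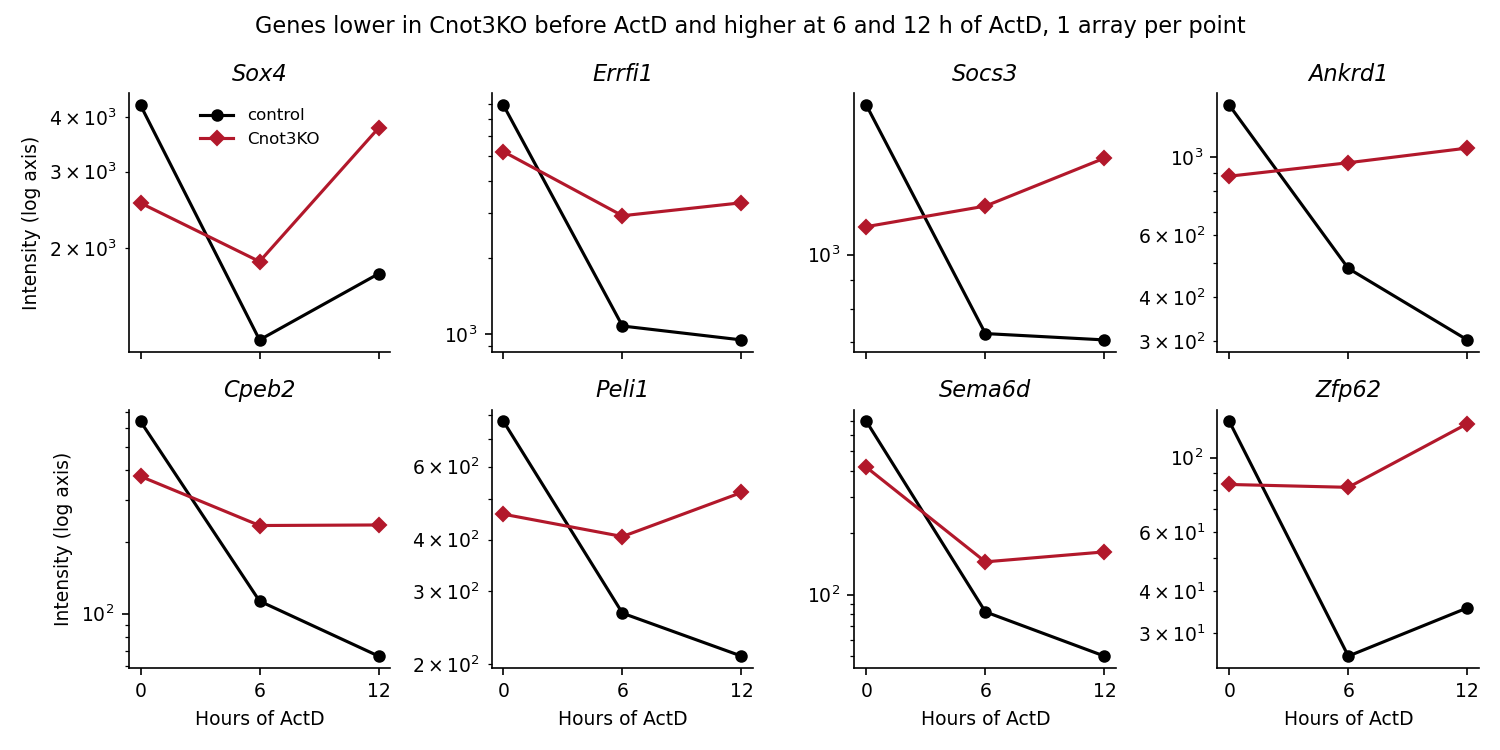
Intensity (y axis, log scale, separate for each panel) of 8 of the 14 genes at 0, 6 and 12 h of ActD (x axis) in control (black circles) and Cnot3KO cells (red diamonds), with 1 array per point. By selection, the control value in each panel is above the Cnot3KO value at 0 h and below it at 6 and 12 h. Errfi1, for example, is at 7935 and 5217 before ActD and 951 and 3285 at 12 h.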

How the data were processed

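Total RNA of 6 samples was hybridised to Affymetrix mouse genome arrays with several probes per probe set, and 2 samples, 1 per genotype at 0 h, were compared here. The authors deposited linear intensities per probe set, made with the Robust Multi-array Average (RMA) across arrays. The software that ran RMA is not given in the sources used here. RMA equalises the distributions of the arrays, so differences are relative to other mRNAs. The table held 45037 probe sets, of which 34945 named 1 gene, 932 several and 9160 none, by GEO's platform annotation. Identifiers matched the RefSeq gene table (assembly GRCm38.p6) in 99.4% of cases.

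Each gene took its probe set with the highest mean log2 intensity over the 6 arrays (18193 genes). Genes were kept if above the 20th percentile of an array on at least 1 of the 2 arrays. The study filtered probe sets at the same percentile and compared genotypes at 1.5-fold. Differences are log2 Cnot3KO minus control, with no test, since each group had 1 array, which limits the precision. Named genes are Cnot3, the 40 largest differences per direction among genes above the array median on at least 1 array with every other probe set of the same sign, and up to 8 members per list past 1.5-fold. Further genes were chosen after their values were seen. The comparison and the gene lists were chosen with earlier results of these data known. The calculation was tested on simulated arrays. Python 3.11.15, numpy 2.4.6, pandas 2.3.3, scipy 1.17.1 and matplotlib 3.10.9 were used.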

Additional observations from a re-analysis of the deposited data

Results flagged for a closer look

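Probe sets that name no gene lie outside the gene comparison, and they differed in the other direction. Of 6142 such probe sets above the 20th percentile, 270 (4.4%) were over 1.5-fold lower in Cnot3KO and 75 (1.22%) over 1.5-fold higher, with a median of -0.09 (log2), against 2.99% and 6.87% of named genes. Their median control intensity was 52.8, against 206 for the genes. Above the median on both arrays 146 of 2100 (6.95%) were lower and 46 (2.19%) higher. Further probe sets of named genes lay between, with 545 of 13606 (4.01%) lower and 625 (4.59%) higher. Which transcripts they measure was not analysed here.

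The group of 14 genes that were over 1.5-fold lower at 0 h and over 1.5-fold higher at both 6 and 12 h is listed because the genotype difference had opposite directions before and under ActD. The difference between the times was not tested, with 1 array for each genotype and time. Other probe sets of Garem1, Peli1, Sema6d and Sox4 reached positive differences at 0 h. No gene over 1.5-fold higher at 0 h was over 1.5-fold lower at both later times (0 of 1107). The shares of all genes kept that passed 1.5-fold at both later times are not given. Neither this count nor the 14 therefore has a background, and they are not to be read as a contrast.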

How the results depend on the processing

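Of 18 alternative counts, 12 were within 1.5 times the reported ones. Centring on the genes kept gave 704 higher and 749 lower genes, single probe sets gave 1839 and 1331 of 36628, and a 2-fold threshold gave 199 and 96. Of 462 alternative list medians 20, of 14 lists, lay on the other side of 0, with 12 under centring on the genes kept. Of these lists 13 had reported medians of at most 0.098 in size. The farthest turned were NF-kB feedback to -0.17 and SR proteins to -0.12 without probe sets of shared sequence, and conjugating enzymes to 0.10 with a filter at the 50th percentile. Without probe sets of shared sequence the Rab27 and exocytosis median was -0.0034 over 15 genes and the leukocyte median -0.0341, and with a filter at the 50th percentile the mucosal median was 0.45. Without probe sets of shared sequence 5 genes reversed: Aldh1l1 to 0.15, Ccn1 to -0.31, Id2 to -0.16, Laptm5 to 0.20 and Nfkbib to -0.22. Of 330 genes checked singly, 294 stayed past 1.5-fold with centring on the genes kept, 267 of 328 with the mean of all probe sets and 317 with 16 units added before log2. No paired analysis was possible because each group had 1 array, and no array could be left out for the same reason. Calls were rarest among dim genes. Among the genes kept, ordered by brightness in 5 equal parts, 2.05% were higher and 0.993% lower in the dimmest part, against 10.1% and 3.45% in the middle part.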

Other observations

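Genes of liver zonation and of growth added single differences. Of 21 pericentral genes 3 (14.3%) were lower and 1 higher, among them Rgn, a calcium-binding protein, at -1.63 (log2), and Znrf3, an inhibitor of Wnt signalling, at -0.67. Glul, the pericentral glutamine synthetase, was at -0.50, and the Wnt targets Axin2 and Lgr5 were at -0.03 and -0.53. Of 18 periportal genes 4 (22.2%) were lower and 2 (11.1%) higher. Whether the zones differed was not tested. Among 19 insulin-like growth factor genes Igf2 was higher, at 0.67, and the receptor Igf1r lower, with 300.1 and 185. In the TGF-beta list the activin inhibitor Fst was 1.80-fold lower, and 2 of 24 members were lower and 1 higher. Of 26 p53 target genes 4 (15.4%) were higher and 0 lower, including the receptor gene Eda2r, with 96.5 and 168. Of 31 lysosome and autophagy genes 2 (6.45%) were higher and 1 lower, and the autophagy receptor Sqstm1 read 5638 and 9430.2. Of 24 genes for metallothioneins and zinc transport, Slc30a10 and Slc39a14, transporters that also carry manganese, were lower at -1.30 and -0.65. Of 26 DNA repair genes 3 (11.5%) were higher and 0 lower.

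None of 4 sex-linked genes was past 1.5-fold. Xist read 4468 in control and 3838 in Cnot3KO cells and the Y-linked gene Eif2s3y 297 and 333, each above the median of both arrays. Kdm5d and Uty, also Y-linked, differed by -0.11 and 0.53, the latter with other probe sets from -0.34 to 0.02. The share of higher genes ranged from 3.65% on chromosome 15 to 9.26% on chromosome 14.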
